A study of Mus musculus with 6 samples.

Results

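Collagens XII, XIV, XVI, XIX and XXII are fibril-associated collagens with interrupted triple helices (FACIT) other than type IX, and each is the product of a single gene. The members were taken by gene symbol, *Col12a1*, *Col14a1*, *Col16a1*, *Col19a1* and *Col22a1*, and all 5 were present among the 43472 gene symbols counted. All 5 passed the filter on low counts, which left 16152 genes tested. The RNA came from intervertebral discs (IVDs) of the thoracic and lumbar spine of mice at postnatal day 20 (P20), and the comparison asked which transcripts differ in the disc when the adhesion G protein-coupled receptor *Adgrg6* is deleted. There were 3 libraries labelled control and 3 labelled mutant, each from a separate pool of discs from 2 to 3 mice of strain C57B6/J as labelled, with no sex given. The mutant-labelled mice were Col2Cre;Adgrg6 f/f, in which Cre driven by *Col2a1* regulatory sequence recombines across the whole disc from embryonic stages and also in periosteum and trabecular bone. The controls were littermates that the study's methods call Cre (-), the genotype label calls wild type and the titles call Col2Cre controls. Whether they carried the floxed allele was not given in the sources used here.

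FACIT collagens do not form fibrils by themselves. Collagens XII and XIV attach through short triple-helical domains to the surface of fibrils built from other collagens, such as collagen I. Their large non-collagenous domains project outwards and bind neighbouring fibrils and matrix proteins. Collagens XII and XIV are typical of dense connective tissue such as tendon, ligament and the annulus fibrosus. Collagen XVI is found in cartilage and in skin, collagen XIX at basement membrane zones and in neurons and muscle, and collagen XXII at tissue junctions such as the myotendinous junction.

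The members share a feature that their selection by name did not use. In 5 of 5, the coding sequence closes its last run of Gly-X-Y codons with a pair of cysteine codons separated by 4 others. The stretches are printed because they show this family signature in the genes whose counts follow. They were read from the GENCODE M21 transcripts on GRCm38, 5′ to 3′ on the coding strand, with the cysteine codons in capitals.
Col12a1: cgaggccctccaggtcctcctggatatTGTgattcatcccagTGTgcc
Col14a1: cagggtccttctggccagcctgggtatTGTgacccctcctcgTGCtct
Col16a1: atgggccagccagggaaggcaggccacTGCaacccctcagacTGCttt
Col19a1: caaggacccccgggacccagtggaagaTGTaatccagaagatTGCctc
Col22a1: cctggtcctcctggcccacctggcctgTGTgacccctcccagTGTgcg
The *Col12a1* stretch lies in exon 65 on the minus strand at chr9:79602231-79602278, and the *Col14a1* stretch in exon 47 on the plus strand at chr15:55518274-55518321. The *Col16a1* stretch lies in exon 70 on the plus strand at chr4:130098982-130099029. The *Col19a1* stretch lies in exon 51 on the minus strand at chr1:24264732-24264779, and the *Col22a1* stretch in exon 64 on the minus strand at chr15:71799381-71799428. Over these 48 bases, *Col22a1* matched both *Col12a1* and *Col14a1* at 34 positions (70.8%), and *Col12a1* matched *Col14a1* at 31 positions (64.6%). The lowest match among the pairs was 22 positions (45.8%). The share of codons in Gly-X-Y runs of at least 5 triplets separated the members into those with little triple helix and those built mainly of it. It was 8.12% of 3065 codons in *Col12a1* and 13.9% of 1794 codons in *Col14a1*. It was 62.1% of 1580 codons in *Col16a1*, 58.9% of 1136 codons in *Col19a1* and 63.2% of 1613 codons in *Col22a1*.

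Levels are given as CPM, the reads on a gene relative to all reads on genes in that library after scaling between libraries. The libraries held 9061491 to 12017008 reads counted on genes, 40.4% to 44.2% of the total. *Gpr126*, the symbol under which *Adgrg6* is listed, was at 123, 107 and 93.6 CPM in control libraries 1, 2 and 3, and at 138, 123 and 106 CPM in mutant libraries 1, 2 and 3. The targeted gene was therefore not lower in the libraries labelled mutant (log2 fold change 0.17, SE 0.18, unadjusted p = 0.367, edgeR). The counts cover the whole gene, and the floxed exons were not given in the sources used here, so this count does not check the genotype labels and the groups are named by label throughout. The skeletal muscle markers, 16 genes summed, reached 5703 CPM in control library 1 against 222 to 339 CPM in the others. They were led by *Acta1*, skeletal actin, at 1257 CPM against 11.02 to 65.3 CPM, and *Tnni2*, at 360.0 CPM against 117 to 159 CPM. Of the 14 tested, 13 were lower in mutant-labelled libraries at an unadjusted p under 0.05 in edgeR, against 4.32% of all genes tested. *Mbp*, a myelin gene and glial marker, was at 168, 1503 and 436 CPM in control libraries 1, 2 and 3 and at 3312, 2269 and 753 CPM in mutant-labelled libraries 1, 2 and 3, while the neuronal marker *Tubb3* was at 0 in all libraries. Neutrophil precursor markers, led by *Mpo* and *S100a9*, summed to 157 CPM in mutant library 1 against 16.1 to 60.2 CPM in the others. The chondrocyte markers summed to 79767 to 138359 CPM in control and 113891 to 140319 CPM in mutant-labelled libraries, and the nucleus pulposus markers to 1152 to 2224 and 1213 to 2317 CPM, so the markers of the labelled tissue, led by *Col2a1* and *Comp* and by *Krt19* and *Krt8*, were present in all 6. Because the discs were sequenced whole, fewer cells of a type and less RNA per cell cannot be told apart in any value that follows.

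Levels of the 5 genes differed widely. On the scale of CPM per kb of exon, which allows genes to be set side by side, *Col16a1* stood highest in control discs at 128 ± 24.1 (SD, n = 3), a level above that of 98.2% of the 15374 genes compared. *Col12a1* followed at 22.3 ± 6.25 and *Col14a1* at 9.14 ± 1.91 CPM per kb. *Col22a1*, at 1.93 ± 1.28, and *Col19a1*, at 1.02 ± 0.91, were in the lower part of the distribution, with 30.8% and 17.01% of genes beneath them. *Col16a1* was above *Col12a1*, and *Col14a1* above *Col22a1*, in 6 of 6 libraries. The neighbours *Col22a1* and *Col19a1* were not separated in every library, since their order held in 5 and was turned in control library 3. *Col12a1* was above *Col14a1* in 4 of 6 libraries on this scale, and the order was turned in mutant-labelled libraries 2 and 3. That order depends on the lengths used, exon unions of 15.23 kb for *Col12a1* (6 transcripts) and 7.01 kb for *Col14a1* (4 transcripts). The transcripts in use were not measured, and shorter ones would change these ratios. The level of *Col12a1* per kb was 2.60, 2.38 and 2.27 times that of *Col14a1* in control libraries 1, 2 and 3, and 1.26, 0.937 and 0.595 times in mutant-labelled libraries 1, 2 and 3. Together the members made up 0.731% to 1.01% of all reads on the 44 collagen genes.

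**Figure D1:**
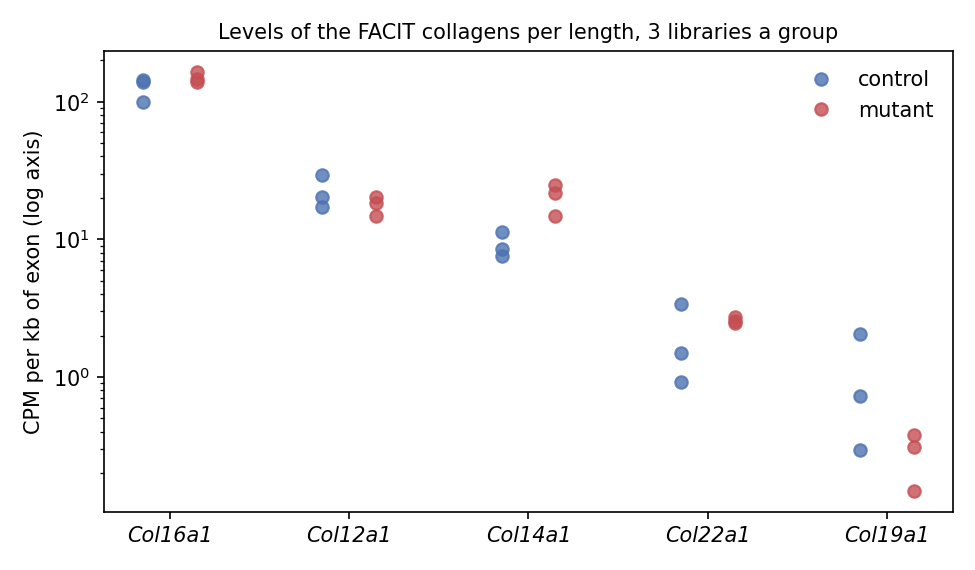
Levels of the 5 FACIT collagen genes as CPM per kb of exon, on a log axis, with 1 point per library and the groups in separate colours. *Col16a1* lies above the other genes in 6 of 6 libraries, and the *Col14a1* points of the mutant-labelled libraries reach those of *Col12a1*.

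*Col14a1* was the member with the clearest difference. It lies on chr15:55307750-55520803 and encodes collagen XIV, which binds decorin-bearing collagen fibrils and has been studied as a regulator of fibril diameter. It had 740, 544 and 685 counts in control libraries 1, 2 and 3, and 905, 1879 and 1647 counts in mutant-labelled libraries 1, 2 and 3. After scaling these were 79.0, 60.2 and 53.2 CPM against 103, 153 and 175 CPM. Every mutant-labelled library lay above every control library, and the nearest pair was control library 1 and mutant library 1. The means were 64.1 ± 13.4 CPM and 144 ± 36.8 CPM (SD, n = 3 each), a 2.24-fold difference. The log2 fold change was 1.16 (SE 0.24) with an unadjusted p of 0.000602 in edgeR's quasi-likelihood test, rank 17 of 16152 genes. The edgeR adjusted p = 0.534, with Benjamini-Hochberg adjustment over all genes, so the difference did not pass at 0.05. With DESeq2 the adjusted p was 0.00137, with edgeR on unfiltered counts 0.000768 and with limma-voom 0.184. The log2 fold change stayed between 1.002 and 1.39 when any 1 library was left out.

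The summed level of the 8 fibroblast markers was 238, 238 and 240.3 CPM in control libraries and 253, 343 and 390.0 CPM in mutant-labelled libraries, with no overlap, and 1 of the 8, *Dpt*, passed at an unadjusted p under 0.05 (log2 fold change 0.51, unadjusted p = 0.0378, edgeR). *Clec3b*, the other abundant gene of that list, averaged 67.4 and 108 CPM with overlap between the groups. The remaining fibroblast markers overlapped between the groups, with log2 fold changes of 0.80 for *Thy1*, 0.41 for *Pdgfra*, 0.37 for *Mfap5*, 0.18 for *Cd34*, -0.02 for *Ly6a* and -0.58 for *Pi16*. *Tnmd*, picked out after its values were seen and a marker of tendon and outer annulus cells, averaged 30.4 CPM in control and 59.3 CPM in mutant-labelled libraries (log2 fold change 0.96, edgeR unadjusted p = 0.00376). The 8 tendon and outer annulus markers as a sum overlapped, at 4883 to 8492 CPM in control and 6121 to 8509 CPM in mutant-labelled libraries, with 3 of 8, *Tnmd*, *Thbs4* and *Egr1*, higher at an unadjusted p under 0.05, against 2.89% of all genes tested for either list. Most of that sum was *Fmod*, fibromodulin, with means of 3499 and 4366 CPM, and *Cilp2*, with 2741 and 2532 CPM, both overlapping between the groups. *Mkx*, a transcription factor of tendon cells, was at 40.3 and 40.05 CPM (log2 fold change -0.01). Their part in the *Col14a1* difference was not tested.

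*Col12a1*, on chr9:79598991-79718831, encodes collagen XII, the close relative of collagen XIV that is found along fibrils of tendon and ligament. It had 446, 311 and 262 CPM in control libraries 1, 2 and 3, and 281, 311 and 226 CPM in mutant-labelled libraries 1, 2 and 3. The groups overlapped, and the highest value was that of control library 1. The means were 339.7 ± 95.2 CPM in control and 273 ± 43.6 CPM in mutant-labelled libraries (SD, n = 3 each). The log2 fold change was -0.32 (SE 0.24, edgeR unadjusted p = 0.206, adjusted p = 0.791), and it was -0.06 without control library 1. Counts of this gene do not separate its long and short splice forms.

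**Figure D2:**
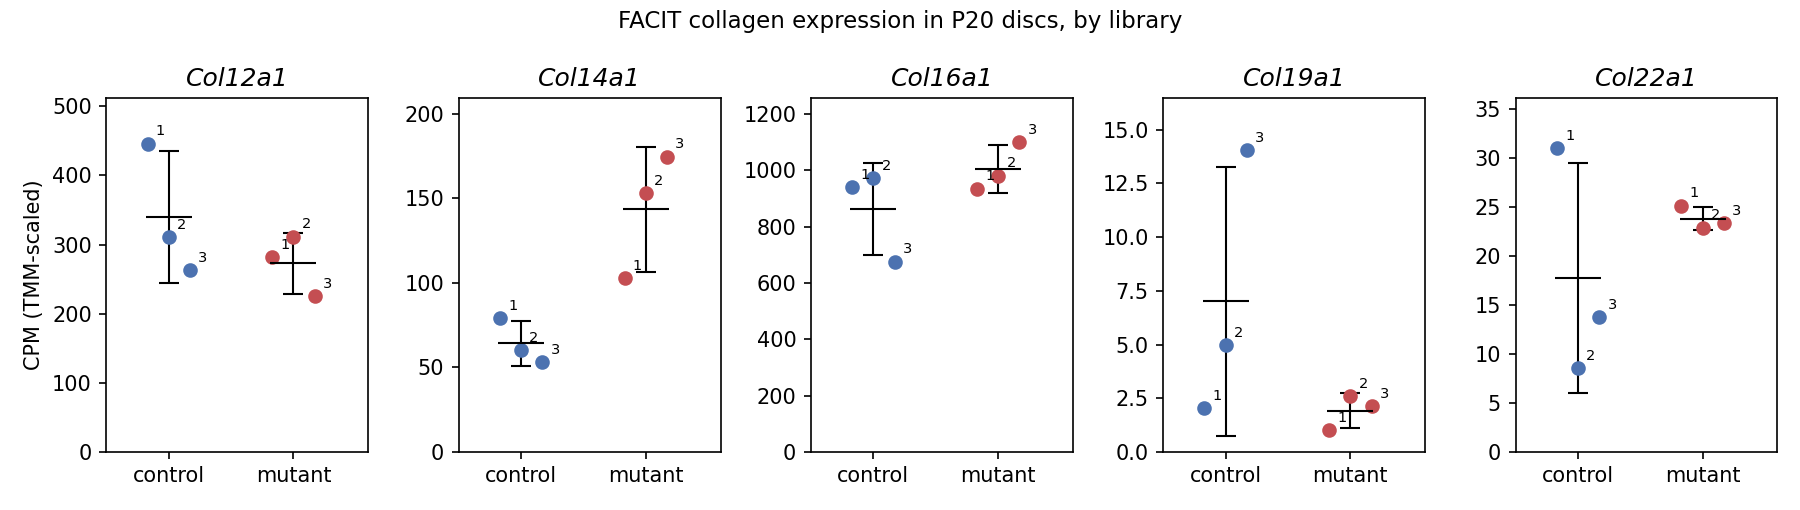
TMM-scaled CPM of each FACIT collagen gene in the 3 control and 3 mutant-labelled libraries, 1 panel per gene, with replicate numbers beside the points and bars for the mean and SD. The groups are separate for *Col14a1*, where mutant-labelled libraries start at 103 CPM and control libraries end at 79.0 CPM, and overlap for the other genes.

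The balance between the paired relatives was set out within each library, where scaling cancels. Counts of *Col14a1* were 17.7%, 19.4% and 20.3% of those of *Col12a1* in control libraries 1, 2 and 3. They were 36.6%, 49.1% and 77.4% in mutant-labelled libraries 1, 2 and 3. Control libraries lay close together, and every mutant-labelled library was above them. On the log2 scale the ratio averaged -2.39 ± 0.10 in control and -0.95 ± 0.55 in mutant-labelled libraries (SD, n = 3 each), a difference of 1.44. The two-sided exact permutation test gave p = 0.1, the smallest that 3 against 3 can give. *Col14a1* took 4.43% to 5.27% of the members' summed counts in control libraries and 7.64% to 11.4% in mutant-labelled libraries. *Col12a1* took 22.9% to 29.8% in control and 14.8% to 21.2% in mutant-labelled libraries.

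Collagens such as XII and XIV coat fibrils, so each member was also set against the fibril-forming genes *Col1a1*, *Col1a2* and *Col3a1* summed within a library. Within this sum, *Col1a1* averaged 8194 CPM in control and 17038 CPM in mutant-labelled libraries, and *Col1a2* 6411 and 11686 CPM, both overlapping between the groups. Log2 fold changes in edgeR were 1.05 for *Col1a1*, 0.86 for *Col1a2* and 1.08 for *Col3a1*, so the ratios also carry the change of the denominator. *Col14a1* counts were 0.330%, 0.372% and 0.576% of that sum in control libraries 1, 2 and 3 and 0.470%, 0.383% and 0.484% in mutant-labelled libraries 1, 2 and 3. The groups overlapped, with a log2 difference of 0.10 (exact permutation p = 0.8, adjusted over the 5 members 0.8), and without control library 1 the difference was -0.06. *Col12a1* counts were 1.86%, 1.92% and 2.84% of the sum in control and 1.29%, 0.780% and 0.624% in mutant-labelled libraries. Every mutant-labelled library was below every control library for this ratio, by 1.34 on the log2 scale (exact permutation p = 0.1, adjusted 0.25). *Col16a1* counts were 3.93%, 6.01% and 7.32% of the sum in control and 4.28%, 2.46% and 3.05% in mutant-labelled libraries, a log2 difference of -0.81 (exact permutation p = 0.2, adjusted 0.333). For *Col19a1* the log2 difference was -2.60 (exact p = 0.1, adjusted 0.25), and without control library 3 it was -1.52 (exact p = 0.2). For *Col22a1* it was -0.42 (exact p = 0.5, adjusted 0.625), and with any 1 library left out it ran from -0.88 without control library 2 to -0.13 without control library 3. With *Col2a1*, the main fibrillar collagen of cartilage, as the denominator, the log2 differences were 0.84 for *Col14a1*, -0.61 for *Col12a1* and -1.86 for *Col19a1*, each with an exact permutation p of 0.2. They were -0.07 for *Col16a1* (exact permutation p = 0.7) and 0.32 for *Col22a1* (exact permutation p = 0.9), so the *Col16a1* difference was near 0 and that of *Col22a1* had the other sign with this denominator.

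**Figure D3:**
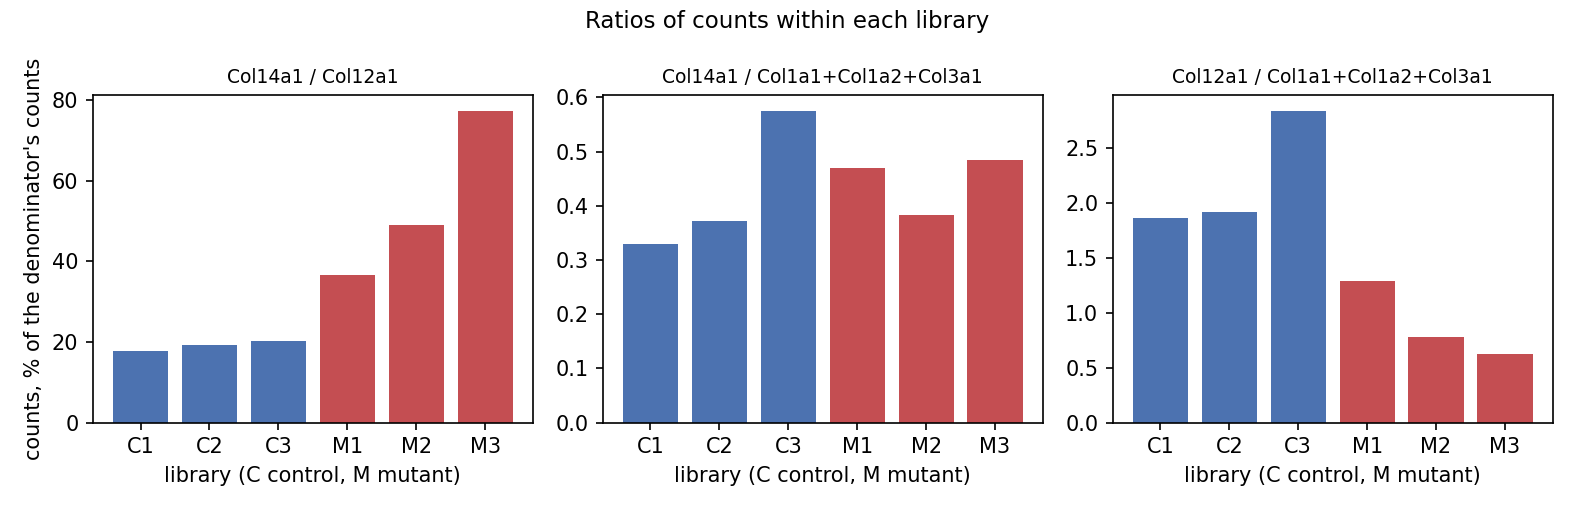
Counts of the named FACIT collagen as a percentage of the counts of the gene or summed genes named under it, with 1 bar per library (C1 to C3 control, M1 to M3 labelled mutant) and axes that start at 0. *Col14a1* is 17.7% to 20.3% of *Col12a1* in control and 36.6% to 77.4% in mutant-labelled libraries, the groups overlap for *Col14a1* over the fibril-forming sum, and mutant-labelled libraries are lower for *Col12a1* over it.

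*Col16a1*, on chr4:130047840-130099283, encodes collagen XVI, which in cartilage is a component of thin fibrils. It had 940.2, 972 and 676 CPM in control libraries 1, 2 and 3 and 936, 982 and 1102 CPM in mutant-labelled libraries 1, 2 and 3. The values overlapped, and control library 3 was the lowest of the 6. The means were 863 ± 163 CPM and 1007 ± 85.5 CPM (SD, n = 3 each), with a log2 fold change of 0.22 (SE 0.22, edgeR unadjusted p = 0.350, adjusted p = 0.843). Without control library 3 it was 0.08 (edgeR unadjusted p = 0.735).

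*Col22a1*, on chr15:71795795-72034227, had 31.0, 8.52 and 13.7 CPM in control libraries 1, 2 and 3 and 25.1, 22.9 and 23.3 CPM in mutant-labelled libraries 1, 2 and 3. Control library 1, the library with the high skeletal muscle markers, was the highest of the 6, and the mutant-labelled libraries were close together. The means were 17.7 ± 11.8 CPM and 23.8 ± 1.18 CPM (SD, n = 3 each), with a log2 fold change of 0.42 (SE 0.38, edgeR unadjusted p = 0.291, adjusted p = 0.823). As control library 1 held the highest value, the groups no longer overlapped without it. The share of all genes that separate without it was not worked out. The edgeR log2 fold change was then 1.10 (unadjusted p = 0.00138, adjusted p = 0.0941). In that fit 5.25% of 17164 genes were higher and 8.89% lower at an unadjusted p under 0.05. With limma-voom and quality weights for each library the log2 fold change of *Col22a1* was 0.90 (unadjusted p = 0.0199). In edgeR it was 0.09 without control library 2 (unadjusted p = 0.779) and 0.28 without control library 3 (unadjusted p = 0.537). The part of muscle RNA in the control library 1 value was not tested.

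*Col19a1*, on chr1:24261890-24587472, was the lowest member. It had only 19, 45 and 181 counts in control libraries 1, 2 and 3, and 9, 32 and 20 counts in mutant-labelled libraries 1, 2 and 3, or 2.03, 4.98 and 14.1 CPM against 1.02, 2.61 and 2.12 CPM. Control library 3 stood far above the rest, and control library 1 lay among the mutant-labelled libraries. The means were 7.02 ± 6.27 CPM and 1.92 ± 0.81 CPM (SD, n = 3 each), with a log2 fold change of -1.87 (SE 0.67, edgeR unadjusted p = 0.0192, adjusted p = 0.676). Without control library 3 the log2 fold change was -0.84 (unadjusted p = 0.219, edgeR), and without mutant library 1 it was -1.54 (unadjusted p = 0.0648). Control library 3 was also high in genes that should be silent in the disc. The summed level of 1097 olfactory receptor genes, a set chosen after the counts were seen, was 13.8, 19.5 and 30.9 CPM in control libraries 1, 2 and 3 and 7.84, 13.5 and 11.98 CPM in mutant-labelled libraries 1, 2 and 3. The median of 993 genes spanning at least 200 kb, also chosen afterwards, was 0.64 higher on the log2 scale in control library 3 than in the mean of the other libraries and -0.60 to 0.16 in the rest, and *Col19a1* itself spans 325.6 kb. *Col14a1* (213.1 kb) and *Col22a1* (238.4 kb) also pass that length, and in control library 3 they were at 53.2 and 13.7 CPM. In mutant libraries 1 and 2, where *Mbp* was highest, *Col19a1* was at 1.02 and 2.61 CPM. The part of these measures in the *Col19a1* difference was not tested.

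**Figure D4:**
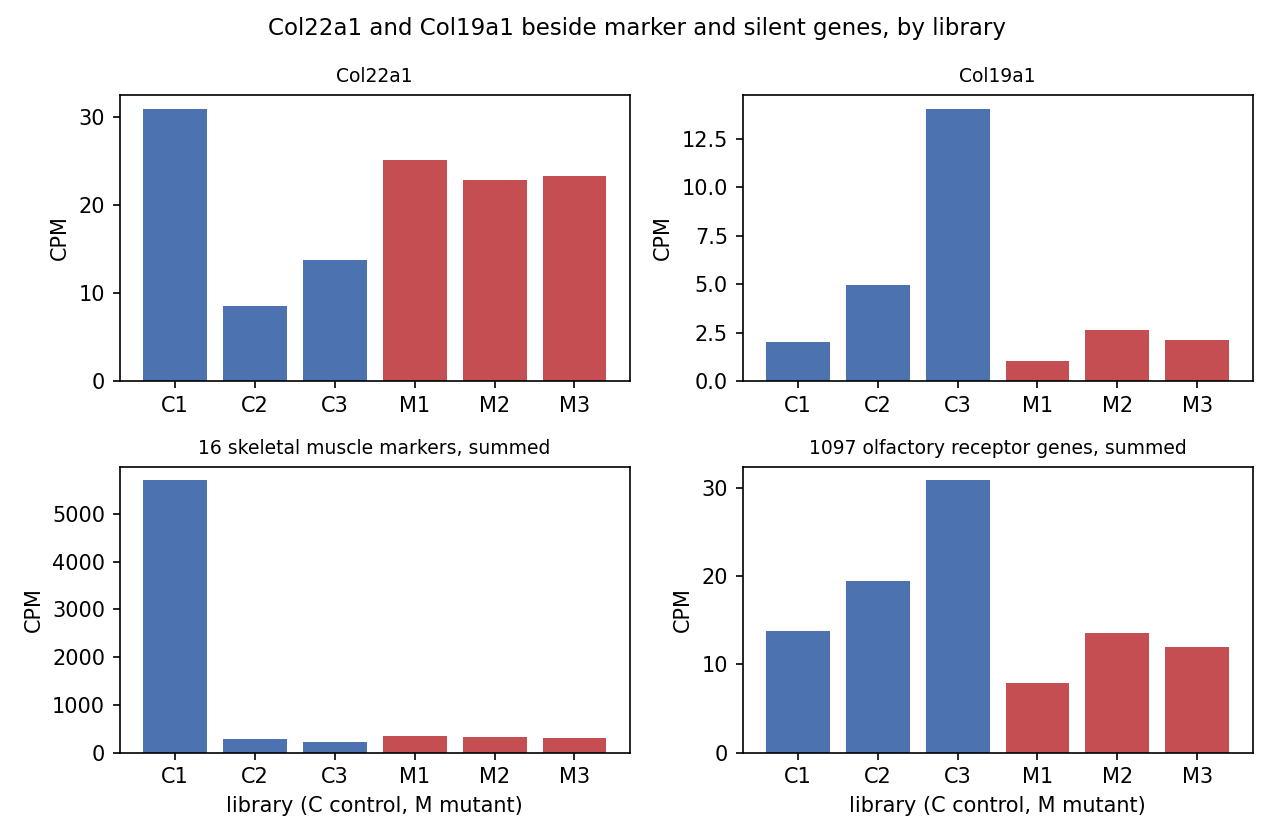
CPM of *Col22a1* and *Col19a1* in the top panels, and below them the summed CPM of the skeletal muscle markers and of the olfactory receptor genes, with 1 bar per library (C1 to C3 control, M1 to M3 labelled mutant). Control library 1 is highest in *Col22a1* and in muscle markers, and control library 3 is highest in *Col19a1* and in olfactory receptor genes.

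Counted over the family, 1 of 5 members, *Col14a1*, was higher in mutant-labelled libraries at an unadjusted p under 0.05 in edgeR, against 2.89% of all genes tested, and 1 of 5, *Col19a1*, was lower, against 4.32%. With p adjusted over all genes, 0 of 5 passed in edgeR, against 0.00619% of all genes, where the unadjusted count was 2 of 5. With DESeq2 1 of 5, *Col14a1*, passed adjustment, against 0.197% of genes (52 of 26372). That share is a lower bound, as it is over all genes with a p-value, including any that DESeq2's default filter left without an adjusted p. With edgeR on unfiltered counts also 1 of 5, *Col14a1*, passed, against 0.927% (245 of 26418). With limma-voom 0 of 5 passed, against 0% of genes, and 3 of 5 had an unadjusted p under 0.05 (2 higher and 1 lower), against 4.54% of genes higher and 4.60% lower. All mutant-labelled libraries lay above all controls for 1 of 5 members, against 5.53% of genes, and below them for 0 of 5, against 5.89%. The median log2 fold change of the members was 0.22, beside -0.01 over all genes tested, and it was 0.09 without control library 2 and 0.08 without control library 3.

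**Figure D5:**
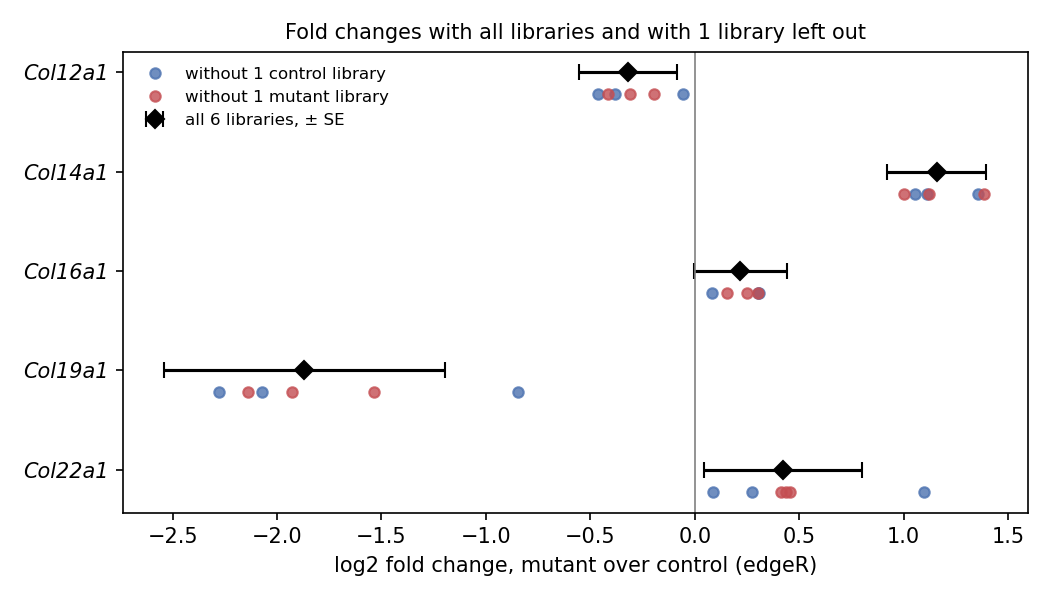
Log2 fold changes of mutant-labelled over control libraries from edgeR, with diamonds and SE bars for 6 libraries and small points for the fits with 1 library left out. *Col14a1* stays between 1.002 and 1.39, *Col19a1* moves to -0.84 without control library 3, and *Col22a1* moves to 1.10 without control library 1.

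The gene lists that follow are read against the same shares, 2.89% of all genes higher and 4.32% lower at an unadjusted p under 0.05 in edgeR, and with any 1 library left out these shares were 1.76% to 5.25% higher and 2.01% to 8.89% lower. Among the related FACIT genes measured, *Col9a1*, *Col9a2*, *Col9a3* and *Col20a1*, none was higher and 2 of 4 were lower at an unadjusted p under 0.05. These were the type IX chains *Col9a2*, with means of 4089 CPM in control and 2626 CPM in mutant-labelled libraries (log2 fold change -0.64, edgeR unadjusted p = 0.0426), and *Col9a3*, with 4521 and 2734 CPM (-0.73, unadjusted p = 0.0231). The number lower was 0 without control library 1, mutant library 2 or mutant library 3 and 1 without control library 2, and without mutant library 2 the number higher was 1. Of 11 fibrillar collagen genes, 5 were higher and 0 lower, with a median log2 fold change of 0.46. The number higher was 3 without control library 2, control library 3 or mutant library 3, and without mutant library 3 the median was 0.24. *Col3a1*, which forms fibrils together with collagen I in fibrous tissue, averaged 1847 ± 255 CPM in control and 3917 ± 1020 CPM in mutant-labelled libraries (SD, n = 3 each), with a log2 fold change of 1.08 (SE 0.28, edgeR unadjusted p = 0.00335). The collagen V genes, whose products start collagen I fibrils, were also higher: *Col5a2* by 0.87 on the log2 scale (edgeR unadjusted p = 0.00486), *Col5a1* by 0.80 (unadjusted p = 0.00759) and *Col5a3* by 0.46 (unadjusted p = 0.0484). Of 16 proteins that sit on the fibril surface or bind it, 6 were higher and 1 lower, with a median of 0.51, which was 0.34 without control library 3, and 5 to 7 were higher with any 1 library left out. The number lower was 0 without control library 2 or any 1 of the mutant-labelled libraries, and 0 with the replicate block. They included *Postn*, a matricellular protein of ligament (63.2 and 142 CPM, log2 fold change 1.17, edgeR unadjusted p = 0.00114), *Tnc*, tenascin C (59.5 and 116 CPM, 0.96, unadjusted p = 0.0112), *Thbs4*, thrombospondin 4 of tendon (82.7 and 176 CPM, 1.09, unadjusted p = 0.00114), and *Aspn*, a small leucine-rich proteoglycan (25.4 and 48.4 CPM, 0.92, unadjusted p = 0.000524), which lies inside *Cenpp* on the opposite strand. Of 7 collagen receptor genes, 0 passed at an unadjusted p under 0.05 in edgeR in either direction, and the smallest were *Itga11*, with a log2 fold change of 0.44 (unadjusted p = 0.122), and *Itgb1*, with 0.20 (unadjusted p = 0.240). The number higher was 1 without control library 1 or mutant library 1. Of 19 collagen processing genes, 5 were higher and 2 lower, among them *Pcolce*, the enhancer of procollagen C-proteinase (285 and 497 CPM, log2 fold change 0.80, edgeR unadjusted p = 0.00289). *Loxl2*, a crosslinking enzyme, was also higher (0.60, edgeR unadjusted p = 0.0366), and *Adamts14* (-0.54, unadjusted p = 0.0137) and *Pcolce2* (-0.46, unadjusted p = 0.0325), a procollagen protease and a second enhancer, were lower. The number of processing genes higher was 2 without control library 3 and 3 without control library 2, mutant library 2 or mutant library 3, and the number lower was 0 without control library 2 or mutant library 2 and 1 without control library 1, mutant library 1 or mutant library 3. None of these lists had a gene past an adjusted p of 0.05 in edgeR.

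Across the 6 libraries the genes with the highest correlation differed between the members. This likeness is Pearson's r of log2 CPM and is a description of libraries that share depth and tissue. Each named gene has the highest r among many candidates over only 6 libraries, and no chance value was worked out for it. Among 43 collagen genes, taken with no minimum level, *Col14a1* was closest to *Col3a1* (r = 0.987) and *Col5a2* (0.918), while *Col12a1* was closest to *Col11a1* (0.970) and *Col9a1* (0.944), both expressed in cartilage. *Col12a1* and *Col14a1* had an r of -0.31 with each other. *Col16a1* was closest to *Col7a1* (0.927) and *Col4a3* (0.922), and *Col19a1* to *Col23a1* (0.947) and *Col6a4* (0.903), all of them low, with means of 1.38 to 5.73 CPM over the libraries. *Col22a1* followed no collagen closely, with 0.624 for *Col1a1* and 0.610 for *Col4a1*. Over the other genes with a mean of at least 10 CPM, 9954 for each member except *Col19a1*, with 9955, the leading 3 for *Col14a1* were *Copz1* (0.995), *RP24-299H18.2* (0.993) and *Slc25a23* (0.987), and for *Col12a1* *Gm2415* (0.992), *Gramd2* (0.992) and *Mon2* (0.983). For *Col16a1* they were *Wash* (0.995), *Csnk1e* (0.992) and *Tmem191c* (0.991), and for *Col19a1* *Rpl36al* (0.999), *Simc1* (0.993) and *Hs6st3* (0.990). For *Col22a1* they were *Kdr*, a receptor of endothelial cells (0.996), *Hk2*, a hexokinase (0.993), and *Evl* (0.992). The 7 endothelial markers, which hold *Kdr* and are led by *Pecam1* and *Cdh5*, summed to 254, 134 and 178 CPM in control libraries 1, 2 and 3 and 203, 230.0 and 224 CPM in mutant-labelled libraries 1, 2 and 3, the groups overlapping and control library 1 again the highest. Their part in the *Col22a1* values was not tested.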

How the data were processed

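Per the study's methods, poly(A) mRNA isolated from the total RNA of pooled discs was sequenced. The authors deposited raw counts of reads per gene for each of 6 libraries, with totals for reads on no gene. Per the labels, GEO's processing notes name STAR 2.5.3a, HTSeq and DESeq2 on mm10 and GRCm38, whereas the study's methods name a HISAT2 and StringTie route. The strand setting of the counting was not given in the sources used here. A further deposited table of the authors' own fold changes, p-values and size-factor normalised counts for selected genes was not used. Rows naming no gene held 55.8% to 59.6% of the reads and were left out of library sizes. Genes with the low-count filter of edgeR 4.0.16 (minimum count 10) were fitted with TMM scaling and the quasi-likelihood test in R 4.3.3, control against mutant-labelled libraries, with Benjamini-Hochberg adjustment over all tested genes. SE is the absolute log2 fold change divided by the square root of F. CPM are counts over the TMM-scaled gene total, and lengths are exon unions of GENCODE M21. Ratios were compared with two-sided exact permutation tests (scipy 1.17.1). DESeq2 1.42.0, limma 3.58.1, other scaling, no filter, a replicate block and leaving out each library were the alternatives. The edgeR script was tested on simulated counts. Each library is a separate pool, so p-values measure the spread between pools. The members, the gene and marker lists and the tests were chosen with earlier results of these data known. Named genes were the members, in each list up to 4 genes of smallest p whose unadjusted p was under 0.05 with no overlap between groups (where fewer than 2 met this, the 2 of smallest p), and, for each member, the 3 genes and 2 collagens with the highest r. In marker lists used beside a result, the 2 genes of highest mean CPM were named, and 1 result for a marker list is not reported here.

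No exon bases are shared with another annotated gene except 16 bases between *Col22a1* and the antisense *Gm16308*, which had 39 counts in all.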

Additional observations from a re-analysis of the deposited data

How the results depend on the processing

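The depth limits *Col19a1* most, with 9 to 181 counts a library. The number of members with an unadjusted p under 0.05 was 2 in edgeR and ranged from 1 to 3 when 1 library was left out, being 1 without control library 3 or without mutant library 1. The log2 difference of *Col14a1* relative to the fibril-forming sum ranged from -0.06 (-0.0616, without control library 1) to 0.34. *Col22a1* relative to *Col2a1* had a log2 difference of 0.32, opposite in sign to that relative to the fibril-forming sum. The cause of these changes was not tested. Over all genes, 1164 had an unadjusted p under 0.05 in edgeR, against 2276 without the filter, 2427 without control library 1 and 618 without control library 3. The replicate numbers gave correlations of deviations of 0.16, -0.13 and 0.10 between same-numbered libraries. Those between libraries of different number ran from -0.26 to 0.18, so no sign of pairing by number was seen. With so few pairs this check cannot settle whether same-numbered libraries were paired. With the replicate block the log2 fold change of *Col14a1* was 1.15 (edgeR unadjusted p = 0.00249) and that of *Col19a1* -1.59 (unadjusted p = 0.0147), no member changed its call, and 1002 genes passed. *Col14a1* kept its direction and an unadjusted p under 0.05 under every alternative run.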
